A study of Mus musculus with 6 samples.

Results

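The genes described here are 36 genes of glycolysis and of the response to low oxygen, taken as a list of names, in NMuMG cells, an epithelial line derived from the mammary gland of the mouse. Cells of 3 groups were compared: control cells given the vehicle dimethylsulfoxide (DMSO), cells given TGF-β at 5 ng/ml, and cells given TGF-β at 5 ng/ml together with 2APB at 50 μM (TGF-β+2APB). 2APB is used as an inhibitor of store-operated calcium entry, the calcium influx that follows emptying of the internal stores. The paper reports, however, that it raised calcium influx through the channel ORAI3. No group received 2APB alone. Cells were starved of serum before treatment, and the sources differ on the order and length of the treatments. Poly(A) RNA of 2 biological replicates per group was sequenced, so that 6 libraries with total counts from 71840570 to 79473182 were available. All 36 genes were found among the 18512 entries of the deposited table of read counts per gene, and 34 of them were among the 13355 entries tested, those whose normalized counts averaged 20 or more.

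Glycolysis converts glucose to pyruvate in the cytosol, with hexokinase, phosphofructokinase and pyruvate kinase as its regulated steps, and lactate dehydrogenase reduces pyruvate to lactate for export when it is not passed to mitochondria. In low oxygen the prolyl hydroxylases encoded by the Egln genes no longer mark the HIF alpha subunits for degradation, and stabilized HIF-1 or HIF-2 raises the transcription of glycolytic enzymes, of pyruvate dehydrogenase kinase, of angiogenic factors and of genes of acid export and mitophagy. Since HIF alpha is controlled mainly as a protein, mRNA levels of Hif1a and Epas1 are not a measure of HIF activity. TGF-β drives epithelial cells of this line towards a mesenchymal state, and each comparison below asks how the mRNA levels of these genes stood after that treatment and after 2APB was added to it.

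With TGF-β the genes moved in both directions, with more falls than rises. Relative to DMSO, 19 of the 34 tested genes were called, 4 higher and 15 lower, at a false discovery rate (FDR) of 0.05 or less in edgeR's quasi-likelihood F-test over all tested genes. By the same test 41.5% of all tested genes were called in this comparison, 21.8% higher and 19.7% lower, against 55.9% of the tested glycolysis and hypoxia genes. The rises were in Hk2 and Pfkfb4, to 3.51 and 4.37 times the level in DMSO, and in Pfkfb3 and Egln1. The falls were largest in Aldoc, Epas1, Car9 and Pdk1, and 5 other genes of glycolysis, Pfkl, Pfkm, Aldoa, Pgk1 and Eno2, fell by a log2 fold change between 0.65 and 0.95. The median log2 fold change was -0.40 over the tested glycolysis and hypoxia genes and -0.01 over all tested genes.

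When 2APB was added to TGF-β, 13 of the 34 genes were called relative to TGF-β alone, 5 higher and 8 lower, while 17.5% of all tested genes were called, 6.58% higher and 10.9% lower. Hk2, Pfkfb3 and Pfkfb4 were higher again, Vegfa and Bnip3 were higher, and Pdk1, Epas1, Egln3, Eno2, Ldha, Slc16a1, Pgk1 and Pfkl were lower. Relative to DMSO, TGF-β+2APB gave 26 called genes, 7 higher and 19 lower, where 52.7% of all tested genes were called, 25.6% higher and 27.2% lower. The median log2 fold change of the tested glycolysis and hypoxia genes was -0.18 for TGF-β+2APB against TGF-β and -0.50 against DMSO. The comparisons are not independent, because every group enters a pair of them, so values of a gene are given side by side without a test of their likeness. In whole-culture RNA a smaller share of cells expressing a gene and less of its RNA per cell cannot be told apart. The p-values rest on the spread between 2 replicates per group, estimated jointly for the 3 groups, and cover no variation beyond these libraries. The group outside a comparison thus also enters its p-value.

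**Figure D1:**
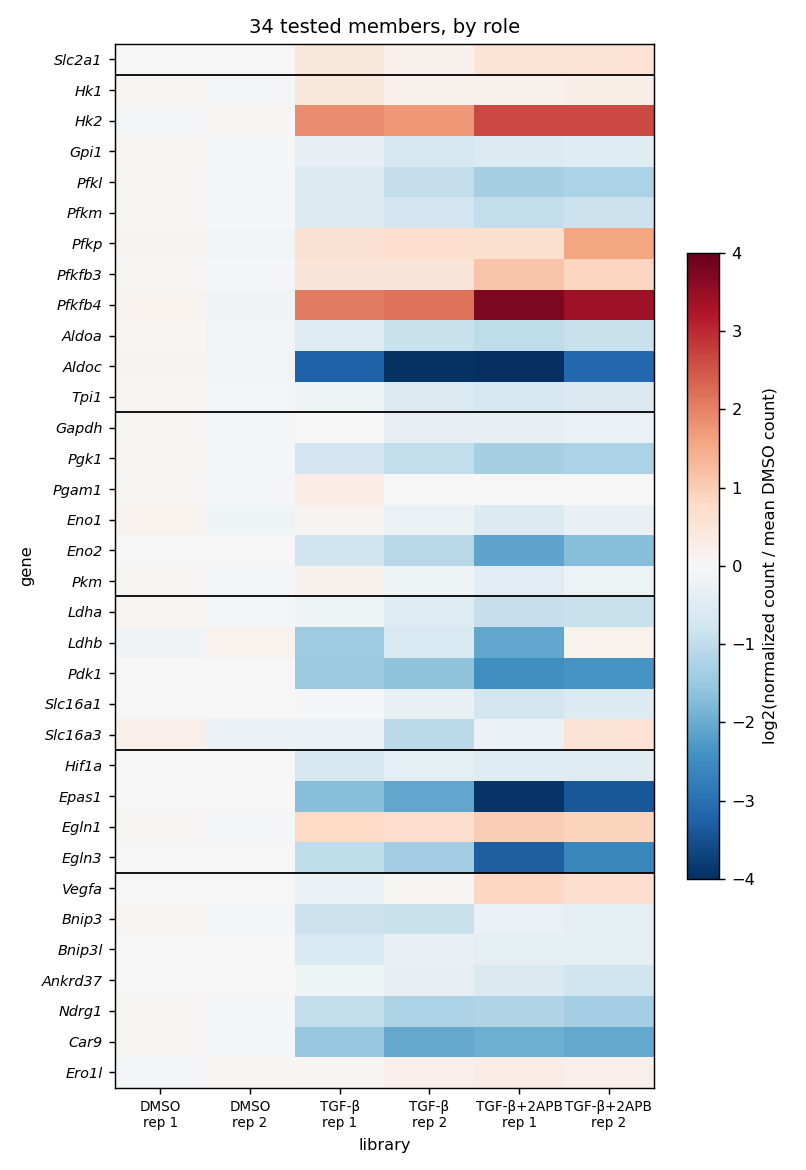
Heat map of the 34 tested genes (rows, grouped by role) in the 6 libraries (columns), coloured by the log2 ratio of the normalized count to the mean of the DMSO libraries, with values beyond 4 in size drawn at the end of the scale. Hk2 and Pfkfb4 are red in all 4 treated libraries and darkest with TGF-β+2APB, whereas Aldoc, Pdk1, Epas1 and Egln3 are blue in all 4.

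The heat map shows the genes of both directions side by side within one pathway: in upper glycolysis the red rows of Hk2, Pfkfb3 and Pfkfb4 stand between the blue rows of Gpi1, Pfkl, Pfkm, Aldoa and Aldoc. It also shows where the replicates of a group differ, most visibly for Ldhb, Slc16a3, Pfkp and Aldoc with TGF-β+2APB. Each of these genes was higher in replicate 2, the library with the high blood cell sum given below. The part of that sum in their values was not tested.

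The cells carried the marks of luminal epithelium in part. Of 8 luminal markers, Krt8, Krt18 and Cdh1 were abundant in all libraries, while Krt19 went from 45904 and 40792 counts in DMSO to 12844 and 8458 after TGF-β and 1704 and 3488 after TGF-β+2APB, Epcam had 52 to 158 counts, Elf5 at most 18, and Csn2 and Wap, milk protein genes of lactating cells, were not analysed here. With TGF-β, 2 of the 5 tested luminal markers (Krt8 and Krt18) were called higher and 3 (Krt19, Epcam and Cdh1) lower, and their part in the results below was not tested. Krt5 of basal cells had at most 2 counts, and 6 basal markers summed to between 20 and 156 counts per library. A list of 6 hepatocyte genes, Alb among them, summed to 88890 and 76292 counts in DMSO, 806 and 382 after TGF-β, and 136 and 146 after TGF-β+2APB, and 6 of 6 were called lower with TGF-β. This list moved with the falls described below, and its part in them was not tested. A list of 5 blood cell genes summed to between 238 and 640 counts in 5 libraries and to 2396 in replicate 2 of TGF-β+2APB. Endothelial markers (4 genes) summed to between 10 and 52 counts, and Adipoq, the one adipocyte marker analysed, had at most 2. Which replicates differed most depended on the measure: the SD of the log2 replicate difference over tested genes, in which each gene counts alike, was 0.78 with TGF-β+2APB, 0.567 with TGF-β and 0.334 in DMSO, whereas the chi-square per degree of freedom of the halved counts, which weighs abundant genes more, was 14.5, 61.5 and 3.39.

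Upstream sequences of 6 genes are shown because the results below turn on them: Hk2 and Pfkfb4 rose with TGF-β and rose again with 2APB, Pgk1, Pdk1 and Egln3 fell in both steps, and Bnip3 fell and then rose. Each line is the RefSeq sequence of the 250 bases before an annotated start in the build GRCm38.p6, written 5′ to 3′ on the gene's strand. Capitals mark the core letters of HIF binding sites, ACGTG or GCGTG, or their reverse complements CACGT and CACGC, and overlapping letters of both strands at one CG were counted once. Pdk1 has another annotated start, whose sequence held no match and is not shown.
Hk2, chr6:82774455-82774704, minus strand: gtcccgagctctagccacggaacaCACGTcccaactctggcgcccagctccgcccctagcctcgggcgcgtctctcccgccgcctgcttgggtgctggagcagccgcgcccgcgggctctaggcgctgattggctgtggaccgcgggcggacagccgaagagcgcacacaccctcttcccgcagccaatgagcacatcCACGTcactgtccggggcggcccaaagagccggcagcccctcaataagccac
Pfkfb4, chr9:108991652-108991901, plus strand: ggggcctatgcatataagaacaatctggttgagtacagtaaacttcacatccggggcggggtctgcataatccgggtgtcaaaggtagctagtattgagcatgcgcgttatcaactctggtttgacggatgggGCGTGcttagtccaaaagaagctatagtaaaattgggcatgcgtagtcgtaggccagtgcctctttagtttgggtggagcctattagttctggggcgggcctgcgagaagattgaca
Pgk1, chrX:106186850-106187099, plus strand: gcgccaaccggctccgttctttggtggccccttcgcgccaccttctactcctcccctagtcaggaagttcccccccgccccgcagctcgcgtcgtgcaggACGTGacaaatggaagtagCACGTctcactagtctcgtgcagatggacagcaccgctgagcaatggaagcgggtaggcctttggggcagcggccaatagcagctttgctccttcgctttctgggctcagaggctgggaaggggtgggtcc
Pdk1, chr2:71872974-71873223, plus strand: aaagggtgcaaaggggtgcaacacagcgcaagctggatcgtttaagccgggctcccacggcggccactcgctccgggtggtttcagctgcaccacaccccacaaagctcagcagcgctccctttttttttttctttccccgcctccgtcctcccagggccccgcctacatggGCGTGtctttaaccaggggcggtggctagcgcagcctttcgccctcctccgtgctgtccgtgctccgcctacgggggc
Egln3, chr12:54203875-54204124, minus strand: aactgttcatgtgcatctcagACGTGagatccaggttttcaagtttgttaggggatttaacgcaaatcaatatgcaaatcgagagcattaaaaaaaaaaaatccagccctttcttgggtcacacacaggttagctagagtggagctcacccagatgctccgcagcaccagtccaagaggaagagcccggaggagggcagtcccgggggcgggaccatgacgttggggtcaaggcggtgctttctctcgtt
Bnip3, chr7:138909507-138909756, minus strand: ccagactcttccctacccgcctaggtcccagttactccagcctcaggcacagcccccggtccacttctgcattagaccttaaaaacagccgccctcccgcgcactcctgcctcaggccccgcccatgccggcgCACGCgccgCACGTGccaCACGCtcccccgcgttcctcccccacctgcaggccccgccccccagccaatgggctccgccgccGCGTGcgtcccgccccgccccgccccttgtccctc

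Counted at the C of the CG, the matches lay 224 and 50 bases before the start in Hk2, 116 in Pfkfb4, 149 and 129 in Pgk1, 77 in Pdk1, 228 in Egln3, and 115, 106, 97 and 34 in Bnip3, where one match is the palindrome CACGTG. A match is a run of letters only, and binding was not measured. RefSeq upstream sequences were found for 32 of the 36 genes, Slc2a3, Epas1, Bnip3l and Ndrg1 being the others, and 29 of the 32 (90.6%) held a match at 1 start or more, compared with 41.5% of the 27025 genes that have RefSeq upstream sequences. By start site, 37 of 46 (80.4%) held one, compared with 12659 of 32817 (38.6%) overall. The 36 genes were listed for glycolysis and the response to low oxygen, so their share is no independent result. The genes they were compared with were not matched for expression or for CG content, and the difference was not tested. Matches stood upstream of genes of every response to TGF-β: 4 of 4 called higher, 10 of 12 called lower (all but Eno2 and Gpi1) and 14 of 15 not called (all but Tpi1). For TGF-β+2APB against TGF-β, the numbers were 5 of 5 called higher, 6 of 7 called lower and 17 of 19 not called. Vegfa, among those called higher, held no match before its upstream start and counted only through an annotated start inside the gene.

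Glucose entry was represented by Slc2a1, the ubiquitous GLUT1 transporter, and Slc2a3, the GLUT3 transporter of neurons and leukocytes. Slc2a1 had 2791 and 2677 normalized counts in DMSO, 3723 and 3048 after TGF-β, and 3956 and 4077 after TGF-β+2APB. All treated libraries lay above both DMSO libraries, but only TGF-β+2APB against DMSO passed the threshold, with a log2 fold change of 0.55 (FDR 0.00712 by edgeR, SE 0.11), and that call was lost without DMSO replicate 2 (FDR 0.0621, the highest over the alternatives). With TGF-β the log2 fold change was 0.31 (SE 0.11, FDR 0.0658), which became a call with DESeq2 or without either TGF-β replicate. Slc2a3 was not detected in 5 libraries and had 8 counts in replicate 2 of TGF-β+2APB, the library with the high blood cell sum, and it was not tested. A count of 0 allows up to 3 counts, which covers counting error only and takes each count as 1 read, although all values in the table were even.

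Hexokinase traps glucose as glucose 6-phosphate, and its main isozymes here responded differently. Hk2, the inducible isozyme at the mitochondrial surface (chromosome 6, 82725025 to 82774454, minus strand, GRCm38), had 1740 and 1858 normalized counts in DMSO, 6631 and 6011 after TGF-β, and 11157 and 11128 after TGF-β+2APB. The groups did not overlap and the order of the levels was DMSO, TGF-β, TGF-β+2APB. The log2 fold change was 1.81 with TGF-β against DMSO (FDR 9.75e-05 by edgeR, SE 0.09) and 0.82 with TGF-β+2APB against TGF-β (FDR 0.00501 by edgeR, SE 0.08), or 6.19-fold from DMSO to TGF-β+2APB. Both calls were kept in each of the 9 other fits tried and without any one library, although the second lies under a log2 fold change of 1. Hk1, the constitutive isozyme, had 9060 and 8209 normalized counts in DMSO, 11934 and 9778 after TGF-β, and 9814 and 10413 after TGF-β+2APB. Its TGF-β and TGF-β+2APB values overlapped, and edgeR called it in no comparison, with a log2 fold change of 0.33 with TGF-β (SE 0.12, FDR 0.0711) that DESeq2 called and that was called without TGF-β replicate 2 (FDR from 0.00672 to 0.326 over the alternatives). A fit of only the 4 libraries compared, and fits without either TGF-β replicate, called it higher with TGF-β+2APB than in DMSO. Per length of annotated exons, Hk2 made up 21.5% and 24.4% of the sum of Hk1 and Hk2 in DMSO, 44.3% and 46.8% after TGF-β, and 61.9% and 60.4% after TGF-β+2APB. With TGF-β+2APB, Hk2 stood at 23.9 ± 0.16 RPKM (SD, n = 2), which are counts per exon kilobase scaled to library size. Hk1 stood at 15.2 ± 0.76. Not divided by length, the share of Hk2 with TGF-β+2APB was 53.2% and 51.7%. Exons were merged over all annotated transcripts, to 5969 bases for Hk2 and 8532 for Hk1. The lengths of the transcripts expressed were not measured, so which isozyme was the more abundant is uncertain.

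The bifunctional enzymes Pfkfb3 and Pfkfb4 make and break fructose 2,6-bisphosphate, the activator of phosphofructokinase, and both rose in each step. Pfkfb4 (chromosome 9, 108991778 to 109032228, plus strand) had 246 and 205 normalized counts in DMSO, 955 and 1015 after TGF-β, and 2997 and 2357 after TGF-β+2APB. Its groups were apart in the same order as those of Hk2. The log2 fold change of Pfkfb4 was 2.13 with TGF-β (FDR 0.000374 by edgeR, SE 0.16) and 1.44 on addition of 2APB (FDR 0.00552 by edgeR, SE 0.15), so that it stood 11.9-fold above DMSO with both agents. Pfkfb3 had 3225 and 3039 normalized counts in DMSO, 4455 and 4439 after TGF-β, and 6856 and 5695 after TGF-β+2APB, also without overlap. Its log2 fold change was 0.51 with TGF-β (FDR 0.0125 by edgeR, SE 0.10) and 0.50 on addition of 2APB (FDR 0.0292 by edgeR, SE 0.10). The first call of Pfkfb3 was lost without either DMSO replicate (FDR up to 0.101) and the second in a fit of the 4 libraries compared, without either DMSO replicate or without replicate 1 of TGF-β+2APB (FDR up to 0.174), these being the highest values over the alternatives. Per length, Pfkfb4 rose from 10.6% and 9.46% of the pair in DMSO to 25% and 26.2% after TGF-β and 40.4% and 39.1% after TGF-β+2APB.

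The main subunits of phosphofructokinase itself, the committed step, fell. Pfkl, the liver-type subunit, had 17320 and 15878 normalized counts in DMSO, 11298 and 8638 after TGF-β, and 6616 and 6935 after TGF-β+2APB, and Pfkm, the muscle-type subunit, had 6126 and 5794, 4081 and 3494, and 3037 and 3293. In both genes the 3 groups did not overlap and DMSO was highest. Against DMSO, TGF-β lowered Pfkl by a log2 fold change of -0.74 (FDR 0.00875 by edgeR, SE 0.14) and Pfkm by -0.65 (FDR 0.00432 by edgeR, SE 0.10). On addition of 2APB, Pfkl fell by 0.56 (FDR 0.046 by edgeR, SE 0.14), while the log2 fold change of Pfkm was -0.26 (FDR 0.137). Pfkp, the platelet-type subunit, was scarce, with 130 and 112 normalized counts in DMSO, 183 and 191 after TGF-β, and 188 and 357 after TGF-β+2APB. It was called with TGF-β+2APB against DMSO (log2 fold change 1.17, FDR 0.0288 by edgeR, SE 0.33), a call that was lost with the replicate number as a block (FDR 0.055), without either DMSO replicate and without replicate 2 of TGF-β+2APB (FDR up to 0.148). With TGF-β alone Pfkp was called in the fit of only the 4 libraries compared and without either TGF-β+2APB replicate. Replicate 2 of TGF-β+2APB also held the high blood cell sum, whose part in the value of Pfkp was not tested. The fall of Pfkl with TGF-β was lost without DMSO replicate 1 (FDR 0.0689), and its fall on addition of 2APB was lost in 3 other settings, the block among them (FDR 0.0721), and without either DMSO or either TGF-β+2APB replicate (FDR up to 0.194).

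The remaining enzymes of upper glycolysis fell or were not called. Gpi1, glucose 6-phosphate isomerase, had 49521 and 45048 normalized counts in DMSO, 37484 and 29607 after TGF-β, and 32458 and 33872 after TGF-β+2APB, and Aldoa, the main aldolase, had 70407 and 61842, 45755 and 35422, and 32747 and 35650. DMSO lay above all treated libraries in both genes, whereas the treated groups overlapped. TGF-β lowered Gpi1 by a log2 fold change of -0.50 (edgeR FDR 0.0245) and Aldoa by -0.70 (edgeR FDR 0.0111), and neither was called for TGF-β+2APB against TGF-β. Aldoc, the brain-type aldolase, fell furthest of all: it had 1542 and 1319 normalized counts in DMSO, 152 and 91.4 after TGF-β, and 37.6 and 162 after TGF-β+2APB. With TGF-β it was 11.7-fold lower (log2 fold change -3.55, FDR 0.00787 by edgeR, SE 0.65). The TGF-β+2APB replicates of Aldoc enclosed those of TGF-β, and the log2 fold change between these groups was -0.29 (SE 0.63, FDR 0.785). Tpi1, triose phosphate isomerase, had 41916 and 38098 normalized counts in DMSO, 35074 and 27215 after TGF-β, and 24720 and 26919 after TGF-β+2APB, and was called only with TGF-β+2APB against DMSO (log2 fold change -0.63, edgeR FDR 0.0107), while its log2 fold change of -0.36 with TGF-β (FDR 0.0814) was called by DESeq2. Without DMSO replicate 1, Aldoa lost its call with TGF-β (FDR 0.0807) and Tpi1 its call (FDR 0.0736), which Tpi1 also lost without replicate 1 of TGF-β+2APB. Gpi1 lost both its calls without any one of the DMSO or TGF-β+2APB replicates (FDR up to 0.152 with TGF-β and 0.109 with TGF-β+2APB), and that with TGF-β also in a fit of only the 4 libraries compared.

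**Figure D2:**
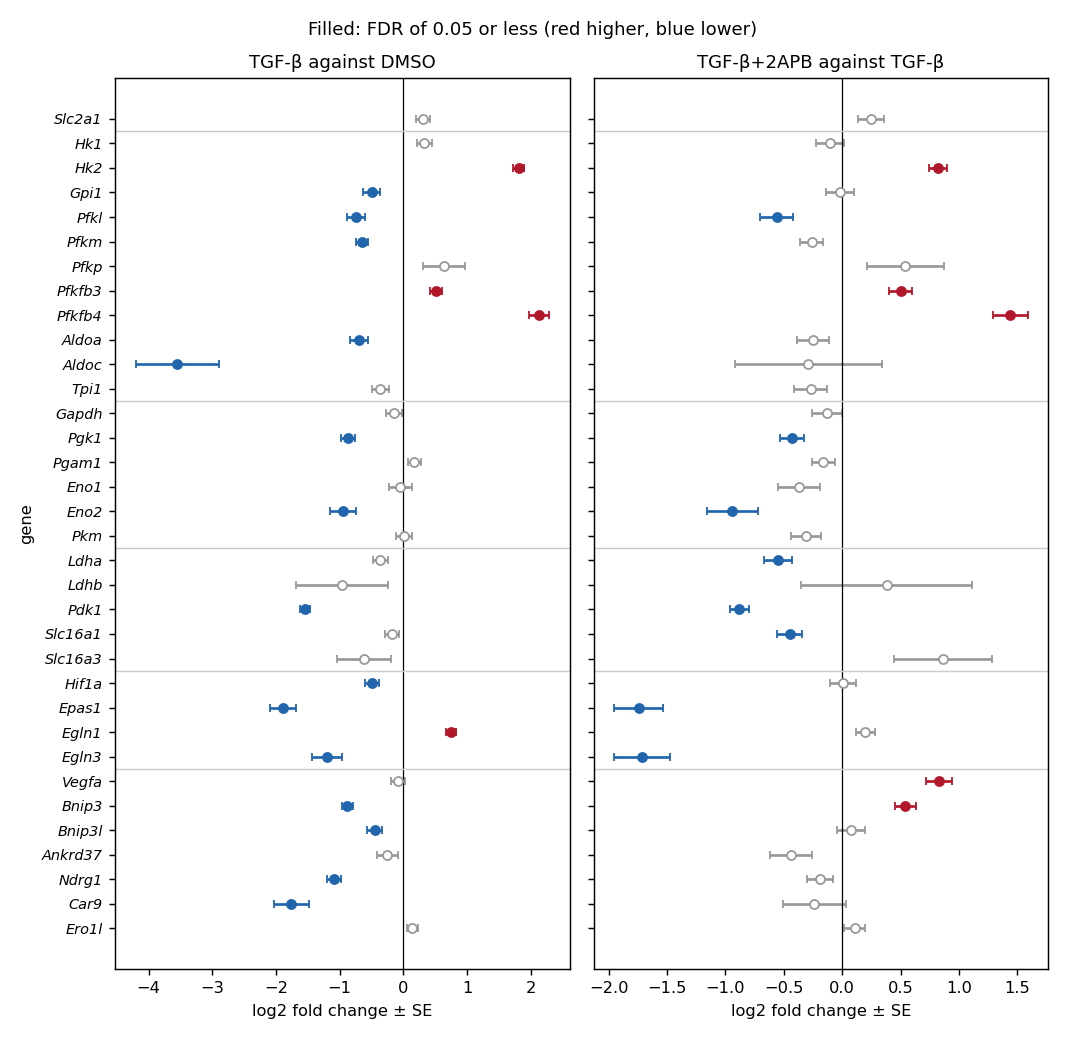
Log2 fold changes with standard errors (horizontal axes, on different scales) of the 34 tested genes for TGF-β against DMSO (left) and TGF-β+2APB against TGF-β (right), from the model of all 6 libraries. Filled points passed an FDR of 0.05: 4 higher and 15 lower on the left, 5 higher and 8 lower on the right.

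In the plot of fold changes, the wide bars of Aldoc, Ldhb, Slc16a3 and Pfkp belong to genes with few counts or replicates that differed, while the bars of Pdk1, Hk2 and Egln1 are about the width of the points.

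In lower glycolysis the model of all 6 libraries called Gapdh, Pkm and Pgam1 in no comparison, although Gapdh and Pkm were called in some other fits. Gapdh, the glyceraldehyde 3-phosphate dehydrogenase often used to normalize measurements, had 44101 and 41209 normalized counts in DMSO, 43104 and 33628 after TGF-β, and 34337 and 35585 after TGF-β+2APB, and its log2 fold changes were -0.15 (SE 0.13), -0.13 (SE 0.13) and, from DMSO to TGF-β+2APB, -0.29 (SE 0.13, FDR 0.106). Pkm, pyruvate kinase, had 150824 and 142237, 164524 and 130315, and 110344 and 126727, with a difference from DMSO to TGF-β+2APB that was not called (log2 fold change -0.31, FDR 0.1). Pgam1, phosphoglycerate mutase, had 45071 and 43000, 54331 and 44953, and 44642 and 44216, with a log2 fold change of 0.17 or less in size in every comparison. DMSO and TGF-β overlapped in all 3 genes, and only in Pkm did TGF-β+2APB lie below every other library. Without TGF-β replicate 1, Gapdh was called lower with TGF-β, and with library size scaling, in the fit of only the 4 libraries compared or without either TGF-β replicate, Gapdh and Pkm were called lower with TGF-β+2APB against DMSO. Leaving out TGF-β replicate 2 made a call of Pgam1 with TGF-β and of Gapdh, Pkm and Pgam1 on addition of 2APB.

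Pgk1 and Eno2 were the listed enzymes of lower glycolysis that fell. Pgk1, the first ATP-forming enzyme of the pathway (chromosome X, 106187100 to 106203699, plus strand), had 71927 and 64163 normalized counts in DMSO, 40347 and 34245 after TGF-β, and 27145 and 28129 after TGF-β+2APB. The 3 groups were apart, with DMSO highest. Its log2 fold change was -0.87 with TGF-β (FDR 0.00188 by edgeR, SE 0.11) and -0.43 on addition of 2APB (FDR 0.043 by edgeR, SE 0.10). Eno2, the neuronal enolase, had 425 and 422 normalized counts in DMSO, 242 and 195 after TGF-β, and 97.1 and 130 after TGF-β+2APB, again with the groups apart. It fell by 0.95 with TGF-β (FDR 0.0165 by edgeR, SE 0.21) and by 0.94 on addition of 2APB (FDR 0.0382 by edgeR, SE 0.22). Eno1, the enolase of most tissues, had 1866 and 1503, 1832 and 1418, and 1147 and 1364 normalized counts and passed no test, with a log2 fold change of -0.42 from DMSO to TGF-β+2APB (FDR 0.0937, from 0.0371 to 0.4 over the alternatives) that passed in the fit of 4 libraries and without either TGF-β replicate. Its near-identical copy Eno1b, a separate entry, had 8756 and 7506 counts in DMSO, 8428 and 6226 after TGF-β, and 5994 and 6278 after TGF-β+2APB, and was called lower with TGF-β+2APB against DMSO (log2 fold change -0.43, FDR 0.0356 by edgeR). Since reads of the pair could be divided between both entries, the level of Eno1 is uncertain. Eno3, the muscle enolase, which is not among the 36, had 778 and 754 counts in DMSO, 2908 and 2420 after TGF-β, and 2860 and 2926 after TGF-β+2APB, and rose with TGF-β by 1.79 on the log2 scale (FDR 0.000106 by edgeR, SE 0.09). The fall of Pgk1 on addition of 2APB was lost with the block (FDR 0.0634), without a filter, in the fit of 4 libraries, and without either DMSO or either TGF-β+2APB replicate (FDR up to 0.199). Eno2 lost its call with TGF-β without either DMSO replicate (FDR up to 0.102), and its call on addition of 2APB with the block (FDR 0.0891), in the fit of 4 libraries and without replicate 1 of any group or DMSO replicate 2 (FDR up to 0.131).

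At the branch from pyruvate, Pdk1 fell in both steps and Ldha on addition of 2APB, and the difference between the genes was not tested. Pdk1, the kinase that inactivates pyruvate dehydrogenase (chromosome 2, 71873224 to 71903858, plus strand), had 5874 and 5662 normalized counts in DMSO, 2085 and 1877 after TGF-β, and 1056 and 1094 after TGF-β+2APB. The 3 groups were far apart compared with the spread of their replicates. Its log2 fold change was -1.54 with TGF-β (FDR 0.000128 by edgeR, SE 0.08) and -0.88 on addition of 2APB (FDR 0.00418 by edgeR, SE 0.08), so that it was 5.37-fold lower with both agents, and both calls were kept in all other fits. Ldha, the lactate-forming subunit of lactate dehydrogenase, had 57407 and 51965 normalized counts in DMSO, 47080 and 37929 after TGF-β, and 28616 and 29558 after TGF-β+2APB. These groups were also apart, but with TGF-β the log2 fold change of -0.36 (SE 0.12, FDR 0.0545) missed the threshold by edgeR and passed it by DESeq2 and with the other scalings. On addition of 2APB, Ldha fell by 0.55 (FDR 0.0314 by edgeR, SE 0.12), and by 0.91 from DMSO to TGF-β+2APB (edgeR FDR 0.00162). Ldhb, the heart-type subunit, had between 9.91 and 45.5 normalized counts in every library and made up at most 0.323% of Ldha and Ldhb per length, and it was called lower with TGF-β+2APB than in DMSO only without replicate 2 of TGF-β+2APB.

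Lactate leaves cells through monocarboxylate transporters. Slc16a1 (MCT1) had 7890 and 8130 normalized counts in DMSO, 7638 and 6540 after TGF-β, and 4861 and 5496 after TGF-β+2APB, which lay below all other libraries. It was not called with TGF-β (log2 fold change -0.18, FDR 0.243) other than without TGF-β replicate 1, and with 2APB added it fell by 0.45 (FDR 0.041 by edgeR, SE 0.11) and by 0.63 from DMSO to TGF-β+2APB (edgeR FDR 0.0046). Slc16a3 (MCT4), the exporter of hypoxic and glycolytic cells, was scarce, with 114 and 84.8, 81.9 and 47.8, and 85.2 and 150 normalized counts, and passed no test. The calls of Ldha and Slc16a1 on addition of 2APB were lost in the fit of 4 libraries and without any one of the DMSO or TGF-β+2APB replicates (FDR up to 0.151 and 0.215), and that of Slc16a1 also with the block (FDR 0.0921) and without a filter.

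Set side by side per length, Pgk1, Pkm, Pgam1 and Aldoa were the most abundant of the listed enzymes in DMSO. Eno1 and Eno2, also of lower glycolysis, stood there at 4.18 and 1.2 RPKM. The lengths were those of merged exons of all annotated transcripts, such as 4133 bases for Gapdh and 1982 for Pgam1. The order therefore depends on the annotation. By normalized counts, not divided by length, Pkm was highest in DMSO with a mean of 146530, above Pgk1 at 68045. In DMSO the mean levels in RPKM were 405 for Pgk1, 391 for Pkm, 297 for Pgam1, 238 for Aldoa, 221 for Ldha, 194 for Tpi1, 138 for Gapdh and 97.9 for Gpi1, whereas Hk1 stood at 13.5 and Hk2 at 4.03. With TGF-β+2APB, Pkm was highest at 303 ± 32 and Pgam1 next at 287 ± 0.47 (SD, n = 2), neighbours that did not differ beyond their spread, while Pgk1 stood at 157 ± 5.3. The 17 enzymes from hexokinase to lactate dehydrogenase held 0.755% and 0.704% of all counts in DMSO, 0.651% and 0.535% after TGF-β, and 0.466% and 0.507% after TGF-β+2APB. The groups did not overlap. This share was not tested, and an exact permutation test of 2 libraries against 2 cannot give a two-sided p below 0.333. Gapdh, Pgk1, Pgam1, Ldha, Aldoa and Eno1 have processed copies elsewhere in the mouse genome, and the treatment of reads with several alignments is not given in the sources used here, so their levels are uncertain where reads were shared. The strand setting of the counting is not given either, and Slc2a1, Hk1, Gpi1, Pfkm, Pfkp, Tpi1, Gapdh, Hif1a, Bnip3, Ankrd37, Ndrg1 and Car9 overlap annotated genes of the other strand, so that reads of both cannot be told apart there.

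**Figure D3:**
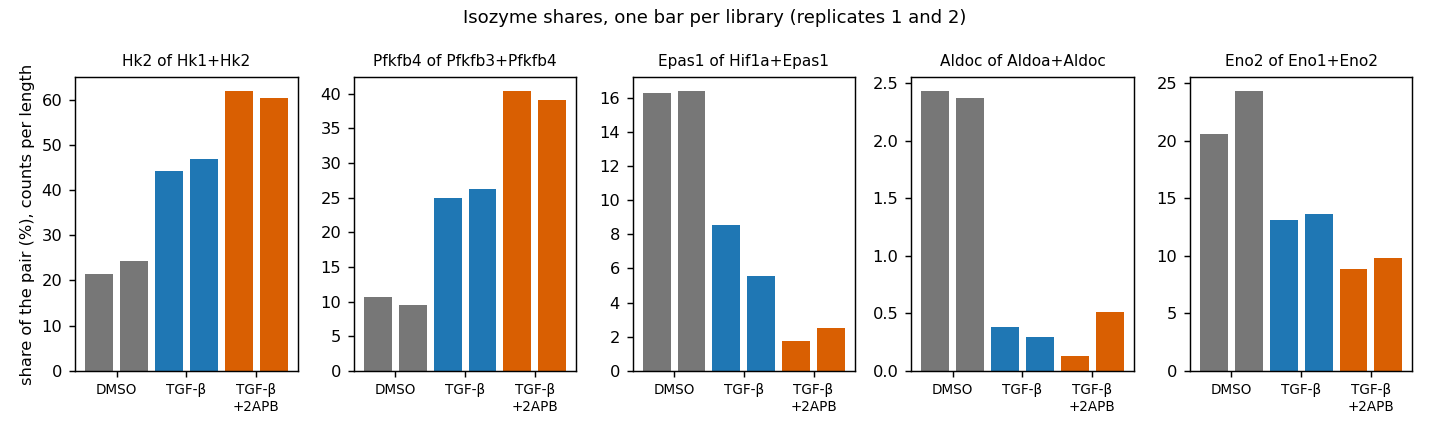
Share of each pair's sum held by the named isozyme (vertical axes in percent, on different scales, counts per exon length), with 1 bar per library. Hk2 and Pfkfb4 take a larger share in each treated group, and Epas1 and Eno2 a smaller one.

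The plot of isozyme shares gives each pair in every library. Aldoc made up 2.43% and 2.37% of the aldolases Aldoa and Aldoc in DMSO and at most 0.514% in any treated library. Eno2 fell from 20.6% and 24.3% of Eno1 and Eno2 to 8.82% and 9.84% with TGF-β+2APB, but with the counts of Eno1b added to Eno1 it was 4.43% and 4.95% in DMSO and 1.54% and 1.93% with TGF-β+2APB, so the order of the groups was the same and the size of the share depended on the copy. Pfkp was at most 1.3% of the phosphofructokinase subunits per length, and at most 3.38% when counts were not divided by length.

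Of the HIF alpha subunits and oxygen sensors, the 4 among the 36 genes (Hif1a, Epas1, Egln1 and Egln3) were called with TGF-β, 1 higher and 3 lower, where 41.5% of all tested genes were called. Egln2 and Hif1an, sensors outside the 36, were not called with TGF-β (log2 fold changes -0.38 and -0.25, edgeR FDR 0.055 and 0.0861). Epas1, which encodes HIF-2 alpha (chromosome 17, 86753700 to 86833410, plus strand), had 3953 and 3833 normalized counts in DMSO, 1189 and 914 after TGF-β, and 258 and 371 after TGF-β+2APB. DMSO was highest and TGF-β+2APB lowest, with no overlap. The log2 fold change was -1.89 with TGF-β (FDR 0.00122 by edgeR, SE 0.20) and -1.74 on addition of 2APB (FDR 0.00706 by edgeR, SE 0.21), so that Epas1 was 12.4-fold lower with both agents than in DMSO. Hif1a, which encodes HIF-1 alpha, had 21407 and 20612 normalized counts in DMSO, 13446 and 16438 after TGF-β, and 15055 and 15084 after TGF-β+2APB. It fell with TGF-β (log2 fold change -0.49, FDR 0.0147 by edgeR, SE 0.11), and its difference on addition of 2APB was 0.01 on the log2 scale (SE 0.11, FDR 0.951). Per length, Epas1 made up 16.3% and 16.4% of the sum of Hif1a and Epas1 in DMSO, 8.53% and 5.54% after TGF-β, and 1.77% and 2.53% after TGF-β+2APB. The calls of Epas1 were kept in all other fits, while that of Hif1a with TGF-β was lost without either DMSO replicate (FDR up to 0.105) and that with TGF-β+2APB against DMSO (log2 fold change -0.48, edgeR FDR 0.0122) also without either TGF-β+2APB replicate (FDR up to 0.0847).

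Of the prolyl hydroxylases, Egln1 rose and Egln3 fell with TGF-β, and Egln2 was called in neither step. Egln1 (PHD2), the main oxygen sensor (chromosome 8, 124908587 to 124949324, minus strand), had 4822 and 4581 normalized counts in DMSO, 8246 and 7560 after TGF-β, and 9330 and 8781 after TGF-β+2APB. It rose with TGF-β (log2 fold change 0.75, FDR 0.00136 by edgeR, SE 0.08), and although both TGF-β+2APB libraries lay above both TGF-β libraries, that difference of 0.20 was not called by edgeR (SE 0.08, FDR 0.161) and was called by DESeq2. Egln3 (PHD3), itself a hypoxia-induced gene (chromosome 12, 54178981 to 54203860, minus strand), had 2148 and 2102 normalized counts in DMSO, 1043 and 810 after TGF-β, and 218 and 349 after TGF-β+2APB. Its groups were apart, in the order of those of Epas1. The log2 fold change was -1.20 with TGF-β (FDR 0.0103 by edgeR, SE 0.24) and -1.71 on addition of 2APB (FDR 0.0109 by edgeR, SE 0.24), or 7.49-fold lower with both agents. The fall of Egln3 with TGF-β was lost without either DMSO replicate (FDR up to 0.0619), and its fall on addition of 2APB was kept throughout. Egln2 (PHD1) had 6074 and 5600 counts in DMSO, 5098 and 3936 after TGF-β, and 3838 and 4466 after TGF-β+2APB, and was called lower only from DMSO to TGF-β+2APB (log2 fold change -0.52, FDR 0.0156 by edgeR), with a log2 fold change of -0.14 on addition of 2APB (FDR 0.471).

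**Figure D4:**
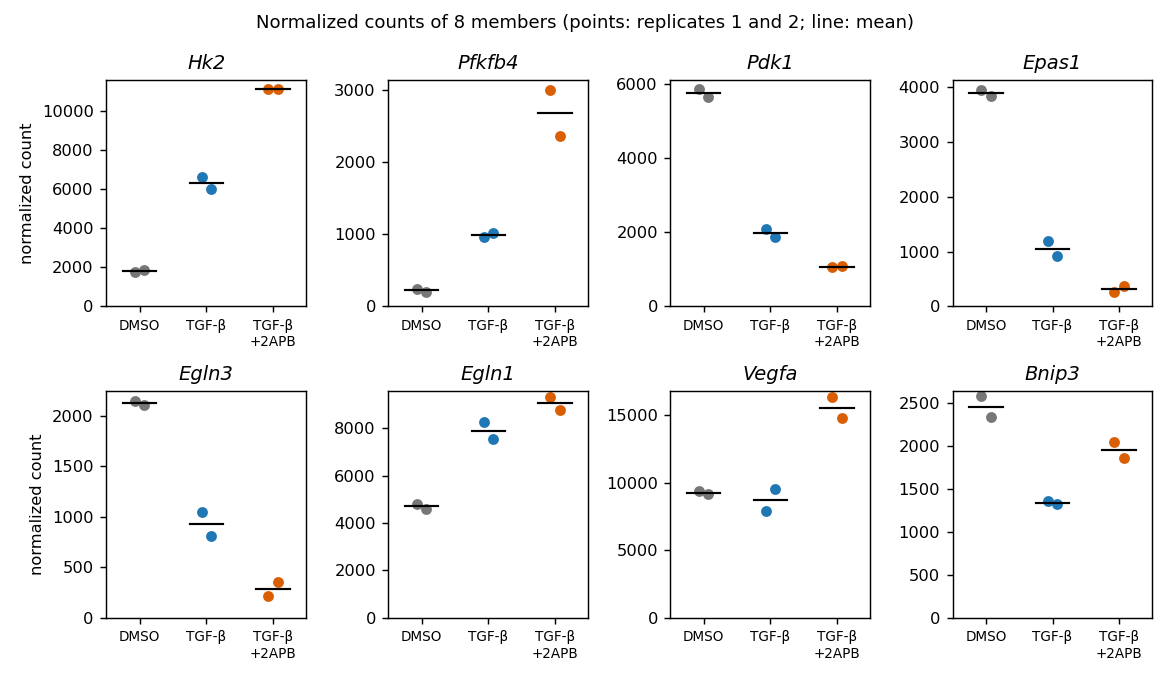
Normalized counts (vertical axes, from 0) of 8 genes in the 2 replicates of each group (points) with the group mean (line). Hk2, Pfkfb4 and Egln1 go up and Pdk1, Epas1 and Egln3 down from DMSO to TGF-β+2APB, whereas Vegfa is high only with 2APB and Bnip3 is lowest with TGF-β alone.

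Among the targets of the hypoxia response, the plot of normalized counts of 8 genes sets 2 patterns apart from those above. Vegfa, the angiogenic growth factor (chromosome 17, 46016993 to 46032369, minus strand), had 9359 and 9129 normalized counts in DMSO, 7932 and 9520 after TGF-β, and 16345 and 14741 after TGF-β+2APB. The TGF-β replicates enclosed those of DMSO and TGF-β+2APB lay above both groups. Vegfa was not called with TGF-β (log2 fold change -0.08, SE 0.11, FDR 0.583) and rose on addition of 2APB by 0.83 (FDR 0.00902 by edgeR, SE 0.11), a call kept in all other fits. Bnip3, a mitophagy receptor (chromosome 7, 138890836 to 138909519, minus strand), had 2572 and 2338 normalized counts in DMSO, 1355 and 1323 after TGF-β, and 2038 and 1856 after TGF-β+2APB. It was lowest with TGF-β and intermediate with 2APB added, with no overlap of groups. The log2 fold change of Bnip3 was -0.88 with TGF-β (FDR 0.00108 by edgeR, SE 0.09), 0.54 on addition of 2APB (FDR 0.0159 by edgeR, SE 0.09) and -0.33 from DMSO to TGF-β+2APB (FDR 0.0232 by edgeR, SE 0.09). The calls of Bnip3 on addition of 2APB and against DMSO were lost without any one of the DMSO or TGF-β+2APB replicates (FDR up to 0.13 and 0.208), and the first also in the fit of 4 libraries.

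The other targets fell or were not called. Ndrg1, a differentiation and stress gene, had 34593 and 32577 normalized counts in DMSO, 17099 and 14350 after TGF-β, and 14481 and 13067 after TGF-β+2APB, and Car9, the membrane carbonic anhydrase of hypoxic cells, had 218 and 209, 74.1 and 51.9, and 55.5 and 51.3. In both genes the fall came with TGF-β, with log2 fold changes of -1.09 (FDR 0.000994 by edgeR, SE 0.11) and -1.76 (FDR 0.00434 by edgeR, SE 0.27), and neither was called on addition of 2APB. Bnip3l, the relative of Bnip3, had 10858 and 10460, 6938 and 8719, and 8308 and 8264 normalized counts and fell with TGF-β (log2 fold change -0.45, edgeR FDR 0.0289), without the later rise of Bnip3 (log2 fold change 0.08, FDR 0.667). Ankrd37, an ankyrin repeat gene of the HIF-1 response, had 289 and 277, 250 and 226, and 188 and 162 normalized counts and was called only with TGF-β+2APB against DMSO (log2 fold change -0.69, edgeR FDR 0.0193). Ero1l, the oxidase of disulfide formation in the endoplasmic reticulum, had 1904 and 2057, 2087 and 2276, and 2425 and 2290 normalized counts and was not called by edgeR, with a log2 fold change of 0.25 from DMSO to TGF-β+2APB (FDR 0.0531) that was called by DESeq2, with RLE scaling, in the fit of 4 libraries and without either TGF-β replicate. Adm, the vasodilator adrenomedullin and a textbook HIF target, had at most 4 counts in any library and was not tested. Bnip3l lost its calls without any one of the DMSO or TGF-β+2APB replicates (FDR up to 0.159 with TGF-β and 0.198 with both agents), the first also in the fit of 4 libraries and the second also with the block (FDR 0.0679), with RLE scaling and without a filter, and Ankrd37 lost its call without either DMSO replicate or replicate 2 of TGF-β+2APB (FDR up to 0.119).

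Other genes of the pathway, named in lists apart from the 36, moved in both directions in about equal numbers, 28 higher and 27 lower of 96 tested with TGF-β, and 12 and 12 on addition of 2APB. Of 31 other hypoxia-response targets, however, 18 were higher and 7 lower with TGF-β, with a median log2 fold change of 0.52, and 7 higher and 3 lower on addition of 2APB. Over all tested genes 21.8% were higher and 19.7% lower with TGF-β, and 6.58% and 10.9% on addition of 2APB. Plod2, a collagen lysyl hydroxylase, rose by 2.81 with TGF-β, whereas Ppp1r3c, a glycogen-targeting phosphatase subunit, fell by 2.66. On addition of 2APB, Stc1, the secreted stanniocalcin, fell by 4.19 (edgeR FDR 0.00386) and Igfbp3, an IGF-binding protein, rose by 1.07 (edgeR FDR 0.00706). The falls of Car9, Egln3, Bnip3 and Pdk1 with TGF-β stood beside rises of other genes of the same response.

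Among 20 other genes of glycolysis and sugar transport, 4 were higher and 8 lower with TGF-β, and 6 were lower on addition of 2APB, which is 60.0% and 30.0% of the list called against 41.5% and 17.5% of all tested genes. With TGF-β, Ldhd, a mitochondrial D-lactate dehydrogenase, fell by 3.37 on the log2 scale and Hkdc1, a hexokinase-like gene, by 2.68. On addition of 2APB, Slc2a2, the liver and islet transporter GLUT2, fell by 2.55 and Slc2a9, a urate transporter, by 1.03. Fbp2, a gluconeogenic bisphosphatase, fell by 6.66 with TGF-β, and Pck2, the mitochondrial phosphoenolpyruvate carboxykinase, by 0.95 on addition of 2APB. Of 4 tested genes of gluconeogenesis, 2 were lower in the first of these comparisons and 1 in the second. The hepatocyte marker sum, which fell from at least 76292 to at most 806 counts with TGF-β, moved with these genes of liver metabolism, and its part in their falls was not tested.

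Of 15 genes of pyruvate entry into mitochondria, 2 were higher and 4 lower with TGF-β. On addition of 2APB edgeR called none of them, where it called 17.5% of all tested genes. In that comparison 2 of these genes, Pdk3 and Pdp1, had an unadjusted p under 0.05 by edgeR, and DESeq2 called 2. Pcx, pyruvate carboxylase, fell by 2.10 and Pdk2 by 1.48 with TGF-β, while Pdk4, the starvation-induced kinase, rose by 1.37, so that kinases of the Pdk family moved both ways. Pentose phosphate genes gave 1 higher (Pgls) and 1 lower (Tkt) of 7 with TGF-β, and 3 of 10 glycogen genes were lower. The shares called with TGF-β were 40.0% for pyruvate entry, 28.6% for the pentose phosphate pathway and 30.0% for glycogen, all below the 41.5% of all tested genes. On addition of 2APB, the pentose phosphate genes G6pdx and Tkt fell by 0.73 and 0.53, and the glycogen gene Pgm1 rose by 0.65. In the machinery around HIF alpha, 3 of 10 genes were higher and 2 lower with TGF-β, and 3 were higher on addition of 2APB. That is 50% and 30% called, against 41.5% and 17.5% of all tested genes. Arnt2, a partner subunit of HIF alpha, rose by 1.31 and then 1.01, Cited2, which competes with HIF alpha for the coactivator p300, by 0.71 and then 0.49, and Siah2, a ubiquitin ligase of prolyl hydroxylases, by 0.46 on addition of 2APB.

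**Figure D5:**
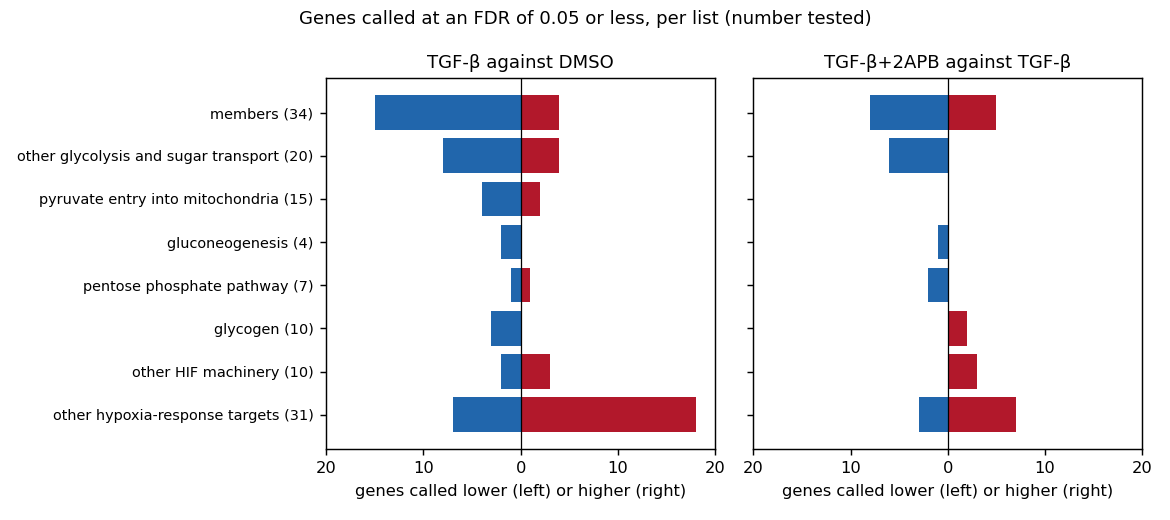
Number of genes called lower (bars to the left) and higher (bars to the right) at an FDR of 0.05 or less in each list, with the number tested in brackets, for TGF-β against DMSO and TGF-β+2APB against TGF-β. The 36 listed genes lean to the lower side (15 against 4 on the left panel), and the other hypoxia-response targets to the higher side (18 against 7).

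Read against the share of all genes called, the counts in the plot of lists are descriptions and not tests of the lists, since genes of a list are neither independent nor chosen without knowledge of these data. With TGF-β+2APB against DMSO the glycolysis and sugar transport list gave 3 higher and 8 lower of 20, or 55.0% called. The other hypoxia-response targets gave 19 higher and 7 lower of 31, or 83.9%. Of all tested genes 52.7% were called in that comparison, 25.6% higher and 27.2% lower.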

How the data were processed

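The authors sequenced single-end reads of poly(A) RNA, checked them with FastQC 0.11.2, aligned them with TopHat2 2.0.13 and counted them on genes with featureCounts. The table as deposited holds raw counts of each gene, without normalization. The submitters' processing notes name the build mm10, while the paper names a human build, and the table holds mouse symbols. Gene annotation, strand setting and treatment of multi-mapping reads are not given in the sources used here. All values were even, so each read may have been counted more than once, and 25 entries had names turned into dates.

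The analysis used R 4.3.3, edgeR 4.0.16 and limma 3.58.1. Entries averaging 20 or more normalized counts were tested, libraries were scaled by TMM, the 3 groups of 2 libraries were fitted in 1 quasi-likelihood model, and Benjamini-Hochberg FDR values of 0.05 or less were called, following the study's thresholds. The SE was taken from the log2 fold change over the root of its F statistic. Normalized counts refer to a library of mean size. Levels per length (RPKM) used the merged exon length of GENCODE M21 (GRCm38), which gave the gene positions, and total counts per library. Upstream sequences were RefSeq's. The floor for a count of 0 was 3 counts. Total counts of 71840570 to 79473182 per library set the counting error, which is larger if each read was counted more than once, and the biological coefficient of variation was 17.4%.

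The 36 genes, the other lists and the marker lists were chosen with earlier results of these data known. Besides the 36 genes, at most the 3 called genes with the largest change per list and comparison were named. Some genes that this rule selects are not reported here. Genes named outside this rule (Eno1b, Eno3, Egln2, Hif1an, Pdk3, Pdp1 and the markers) were named after their values were seen. Alternatives were DESeq2 1.42.0 with and without its fold change prior, RLE or library size scaling, no filter, a minimum of 10 counts per library, a block for the replicate number, only the 4 libraries compared, an FDR limit of 0.01, a minimum log2 change of 1 in size, halved counts and each library left out in turn. A block with the TGF-β+2APB numbers exchanged was added after the data had been seen. The fit was also tested on simulated data in which the changed genes were known. Tables and plots were made with Python 3.11.15, pandas 2.3.3 and matplotlib 3.10.9.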

Additional observations from a re-analysis of the deposited data

How the results depend on the processing

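The share of all tested genes called in the same setting is given in brackets. The number of listed genes called with TGF-β against DMSO, 19 in the reported fit, became 12 at an FDR of 0.01 (25.2%). It became 8 when a minimum log2 change of 1 in size was required (15.9%). For TGF-β+2APB against TGF-β, 13 became 6 in a fit of only the 4 libraries compared (6.54%). That number was 5 at an FDR of 0.01 (4.5%) and 3 under that minimum change (6.3%). For TGF-β+2APB against DMSO, 26 became 13 under the same minimum (22.7%). With each library left out in turn these numbers ran from 11 to 24, from 6 to 22 and from 19 to 31. The lowest values came without DMSO replicate 1 in the first comparison, without either DMSO replicate or replicate 1 of TGF-β+2APB in the second and without either DMSO replicate in the third. The highest came without TGF-β replicate 1, without TGF-β replicate 2 and without either. DMSO libraries enter the second comparison only through the shared spread and the scaling. The share of all tested genes called ran from 20.7% to 57% in the first comparison. Of the called genes, 11 of 19, 6 of 13 and 18 of 26 were called in every other fit and without any one library, leaving aside the stricter thresholds: with 2APB added to TGF-β these were Hk2, Pfkfb4, Pdk1, Epas1, Egln3 and Vegfa. Without TGF-β replicate 2, calls on addition of 2APB were gained by Pfkm, Aldoa, Tpi1, Gapdh, Pgam1, Pkm, Hif1a, Bnip3l and Ndrg1, and without TGF-β replicate 1 by Slc2a1. Halved counts gave the same numbers of calls. No called change reversed its sign under any alternative. The labels do not say whether equal replicate numbers pair the samples. Across genes, which are no replicates, Pearson's r of the log2 replicate differences was 0.147 for DMSO with TGF-β. It was -0.458 for DMSO with TGF-β+2APB and -0.255 for the treated groups, and these values cannot decide the pairing. With the replicate number as a block the 3 comparisons gave 19, 24 and, for TGF-β+2APB against TGF-β, 9 called genes, which lost Pfkl, Pgk1, Eno2 and Slc16a1. With the TGF-β+2APB numbers exchanged in the pairing, a setting chosen after seeing the data, they gave 23, 29 and 14. Depth limits Slc2a3, Adm, Ldhb, Slc16a3, Pfkp and Car9, which had few counts.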
